A study of Mus musculus with 21 samples.

Results

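The genes of the cytotoxic granule described here were 6 of the 17516 gene symbols counted in mouse CD8 T cells: granzyme B (Gzmb), perforin (Prf1), serglycin (Srgn), natural killer cell granule protein 7 (Nkg7), cathepsin W (Ctsw) and lysosome-associated membrane protein 1 (Lamp1). They were chosen by name, and all 6 had UMIs in all 21 single-cell RNA libraries. A UMI (unique molecular identifier) is a random tag that marks 1 captured RNA molecule, and CPM is the number of UMIs of a gene among 1000000 UMIs summed over the cells of a library.

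Killer T cells store their weapons in secretory lysosomes. Perforin opens pores in the membrane of the target cell, and granzyme B, a serine protease, enters through them and starts apoptosis by cutting caspases and their substrates. Serglycin is the proteoglycan core on which granzymes and perforin are packed, Nkg7 is a membrane protein of the granule needed for its release, cathepsin W is a cysteine protease typical of cytotoxic lymphocytes, and Lamp1 (CD107a) lines the granule and reaches the cell surface when the granule is released. Naive CD8 T cells are known to hold little granzyme B, and signals of the T cell receptor and of IL-2 are known to raise it.

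All cells carried the OT1 T cell receptor transgene, which is specific for ovalbumin, and the labels give no other allele, no age and no sex. The naive library was taken on day 0 without treatment. The other 20 libraries came from cells given beads coated with antibodies to CD3 and CD28, and then no cytokine (days 3 and 5) or wild-type IL-2, IL-2v or IL-15 (days 3, 5 and 10), each at a low dose, 5 IU/mL, and a high one, 50 IU/mL. IL-2v is named in its treatment label as the mutant IL-2bg. The treatment labels of 6 libraries name another cytokine than their titles: interleukin-3 for the titles of IL-2 at 50 IU/mL, and interleukin-16 for those of IL-15 at 50 IU/mL. The titles were followed, so each value given for IL-2 or IL-15 at 50 IU/mL rests on them. The extraction text describes a sort of CD44+CD45.1+ cells from tumours, the growth text a culture, and the libraries were taken as cultured cells.

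Each condition had 1 library, so no difference between conditions could be set against a spread between replicates and none was tested. Intervals are exact Poisson 95% intervals for CPM and exact Clopper-Pearson 95% intervals for shares, and they cover counting error only. The libraries held 3250 to 7105 cells and 10589950 to 32648496 UMIs, with medians of 3016 to 5065 UMIs per cell. Among 210 pairs of libraries, at most 19 barcode sequences were shared by a pair. The T cell gene Cd3d was detected in at least 93.0% of the cells of any library, while the lowest shares were 72.03% for Cd3e, 78.9% for Cd3g, 56.4% for Trac, 54.5% for Cd8b1 and 37.0% for Cd8a. Trdc, a gamma-delta T cell gene, was detected in 17.0% to 42.2%. The other marker chosen for these cells, Trgc2, was not among the gene symbols, so no share of gamma-delta T cells was read from Trdc alone. Single cells were not assigned to cell types, so no type that lacks the granule genes was singled out, and free RNA was not measured.

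The genes lie apart in the genome. In the RefSeq annotation of GRCm38.p6, the build known as mm10, the protein-coding genes are Gzmb at chr14:56258836-56262334 (minus strand), Prf1 at chr10:61297751-61304684 (plus), Srgn at chr10:62493833-62527445 (minus), Nkg7 at chr7:43437138-43438246 (plus), Ctsw at chr19:5465043-5468628 (minus) and Lamp1 at chr8:13159161-13175338 (plus). In the GENCODE annotation, exons of Gzmb, Prf1, Srgn and Nkg7 overlap no exon of another gene. Ctsw shares 9 exonic bases with Fibp and Lamp1 shares 249, or 9.31%, with Grtp1, both on the opposite strand. Stretches of 31 bases found also in GENCODE transcripts of other genes make up 1.35% of Gzmb, where the other gene is Gzmc, 0.98% of Srgn and 0.392% of Prf1.

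The sequence just before the start is shown for 3 members, Gzmb and Prf1, whose RNA differed most between libraries, and Nkg7, which was highest in the same library as both. Capitals mark matches, on either strand, to 5 motifs: STAT5 (TTCNNNGAA), AP-1 (TGANTCA), RUNX (TGTGGT), T-box (GGTGTGA) and ETS (GGAAGT). The motifs were searched in the 250 bases before each start, and no matches overlap. The Prf1 stretch stops at 165 bases, before the start of another transcript of the gene.

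Gzmb (chr14:56262335-56262584, minus strand): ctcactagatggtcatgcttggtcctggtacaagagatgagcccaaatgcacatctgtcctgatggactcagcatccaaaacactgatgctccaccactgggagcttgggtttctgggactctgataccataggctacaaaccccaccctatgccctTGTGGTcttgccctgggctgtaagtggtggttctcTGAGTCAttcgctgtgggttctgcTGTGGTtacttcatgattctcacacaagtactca

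Prf1 (chr10:61297586-61297750, plus strand): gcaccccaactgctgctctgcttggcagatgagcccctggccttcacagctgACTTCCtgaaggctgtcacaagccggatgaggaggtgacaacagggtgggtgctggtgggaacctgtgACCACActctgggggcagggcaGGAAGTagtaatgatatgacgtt

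Nkg7 (chr7:43436888-43437137, plus strand): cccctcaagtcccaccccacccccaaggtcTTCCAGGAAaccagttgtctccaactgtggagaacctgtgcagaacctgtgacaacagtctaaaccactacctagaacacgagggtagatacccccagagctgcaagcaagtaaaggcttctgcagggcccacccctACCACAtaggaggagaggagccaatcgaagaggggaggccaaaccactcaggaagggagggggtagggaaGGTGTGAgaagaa

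Gzmb held 1 AP-1 match and 2 RUNX matches, Prf1 held 1 RUNX and 2 ETS matches, and Nkg7 held 1 match each to STAT5, RUNX and T-box. Lamp1 held 1 RUNX match. Srgn, with 2 windows, held 1 ETS match in the first and 1 RUNX match in the second. Of 32851 RefSeq windows of this length, 7.02% held the STAT5 letters, 6.75% AP-1, 14.0% RUNX, 3.33% T-box and 19.7% ETS. A match is a stretch of letters and not a measured binding site.

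Gzmb, a protease of the granule, spanned 3415-fold between libraries. The naive library stood at 6.50 CPM (5.39 to 7.77). On day 3 the library without cytokine stood at 642 CPM, IL-2 at 841 CPM (low dose) and 1873 CPM (high dose), IL-2v at 871 and 1544 CPM, and IL-15 at 766 and 899 CPM. Every activated library of day 3 was thus far above naive cells, and the 2 highest were those with 50 IU/mL of IL-2 or IL-2v.

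On day 5 the Gzmb level without cytokine was 47.2 CPM. The low and high doses stood at 272 and 1689 CPM for IL-2, at 526 and 1938 CPM for IL-2v, and at 128 and 462 CPM for IL-15. The libraries had spread out in order of dose within each cytokine, and the one without cytokine was lowest. By day 10 IL-2 stood at 912 and 7618 CPM, IL-2v at 512 and 3143 CPM, and IL-15 at 93.1 CPM with 50 IU/mL and 2.23 CPM (1.67 to 2.93) with 5 IU/mL. The last was the lowest of all 21 libraries and below the naive library taken as a whole, and the intervals of the 2 did not overlap. Naive cells without a UMI of the chemokine gene Ccl5, described below, were lower still. Of the 20 neighbours in the order of Gzmb levels, 2 pairs had overlapping intervals.

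**Figure D1:**
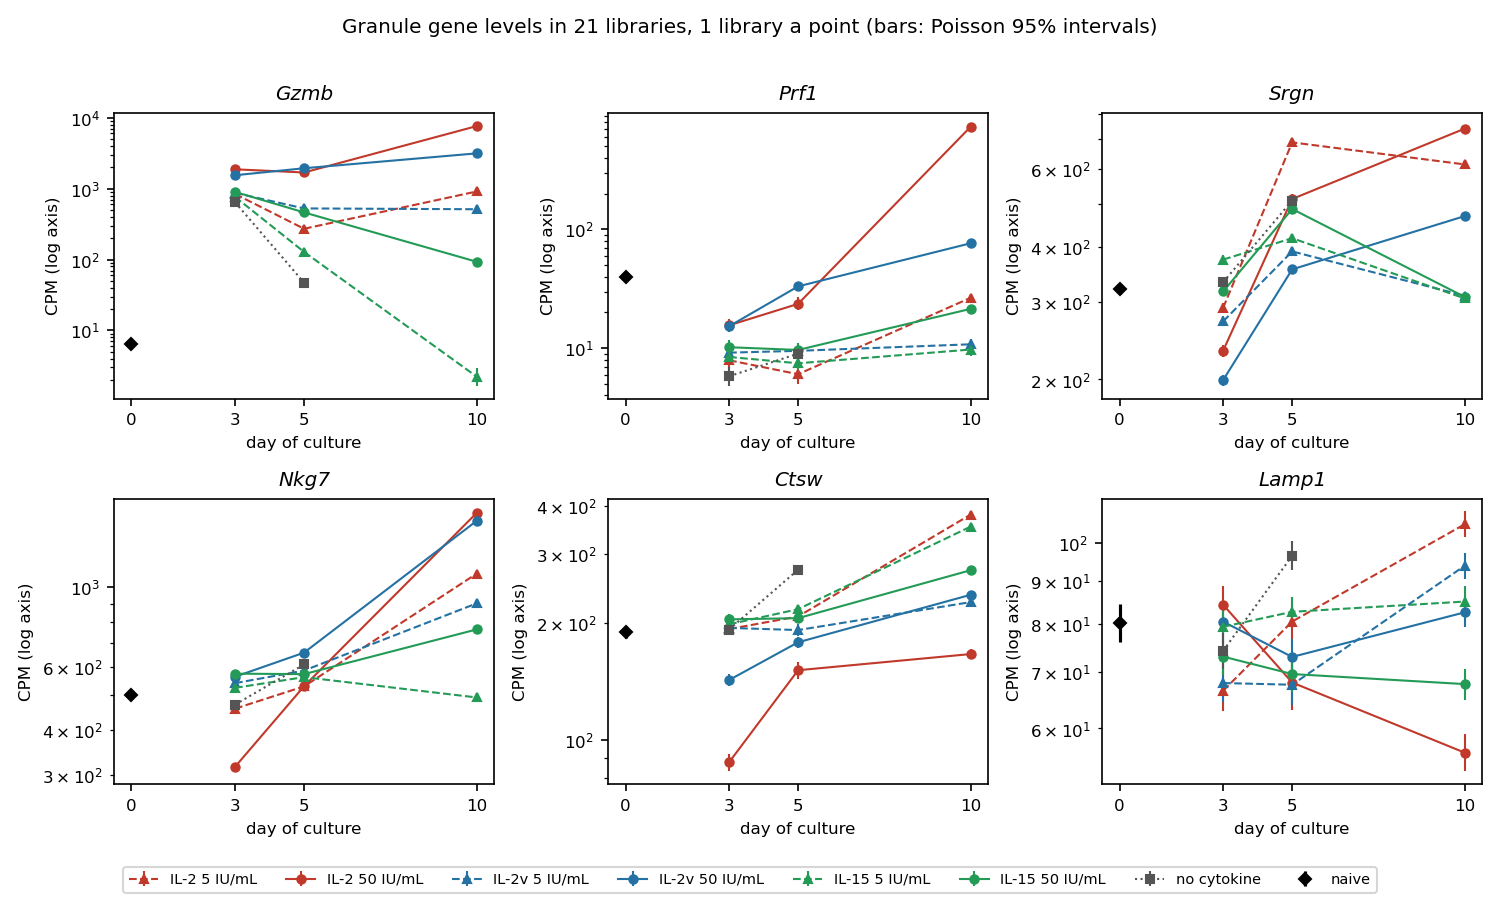
CPM (log axis) of the 6 granule genes against day of culture, 1 point per library, with Poisson 95% intervals; colours give the cytokine, and line and marker the dose. Gzmb spreads from 2.23 to 7618 CPM, Prf1 stands at 732 CPM in 1 library, and Lamp1 stays between 56.1 and 105 CPM.

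Prf1, the pore former, had another order. It stood at 40.0 CPM (37.1 to 43.0) in naive cells, and 18 of the 20 activated libraries were lower. On day 3 it was lowest without cytokine, at 5.80 CPM, and its low-dose and high-dose levels were 7.91 and 15.6 CPM for IL-2, 9.17 and 15.3 CPM for IL-2v, and 8.43 and 10.2 CPM for IL-15. All libraries of day 3 were below naive cells.

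On day 5 Prf1 was at 9.00 CPM without cytokine, 6.04 and 23.6 CPM for the doses of IL-2, 9.50 and 33.1 CPM for those of IL-2v, and 7.46 and 9.66 CPM for those of IL-15. On day 10 it was at 26.6 and 732 CPM for the doses of IL-2, 10.8 and 76.5 CPM for those of IL-2v, and 9.74 and 21.4 CPM for those of IL-15. Only the 2 libraries of day 10 with 50 IU/mL of IL-2 or IL-2v were above naive cells. Neighbouring intervals overlapped in 14 of 20 places of the order, so most of the low levels could not be told apart by counting error alone.

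The other 4 members moved within a narrower range. Srgn, the packing proteoglycan, ran from 199 CPM (IL-2v, 50 IU/mL, day 3) (median 355 CPM), with 320 CPM in naive cells, to 740 CPM (IL-2, 50 IU/mL, day 10). Nkg7 ran from 316 CPM (IL-2, 50 IU/mL, day 3) (median 563 CPM), with 499.9 CPM in naive cells, to 1609 CPM (IL-2, 50 IU/mL, day 10), with 1529 CPM for IL-2v at the same dose and day. Ctsw was lowest, at 87.7 CPM, in the IL-2 library of day 3 with 50 IU/mL, stood at 189 CPM in naive cells (median of all libraries 198 CPM) and was highest, at 379 CPM, with 5 IU/mL of IL-2 on day 10. Lamp1 differed least, from 56.1 CPM with 50 IU/mL of IL-2 on day 10 to 105 CPM with 5 IU/mL on the same day, with a median of 79.4 CPM and 80.2 CPM in naive cells. Neighbouring intervals in the order of levels overlapped in 8 of 20 places for Srgn, 9 for Nkg7, 14 for Ctsw and 17 for Lamp1.

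The library of day 10 with 50 IU/mL of IL-2 thus held the highest level of Gzmb, Prf1, Srgn and Nkg7 and the lowest of Lamp1. It also held the highest summed level of 4 natural killer cell markers, 135 CPM, where the libraries ranged from 0.343 CPM upward with a median of 2.84 CPM. Fcer1g made up 113 CPM and Klrb1c 21.3 CPM of that sum, while Klrb1c was highest with 50 IU/mL of IL-2v on day 10, at 36.7 CPM. The sum of 4 myeloid markers was highest in the IL-2 library too, at 15.3 CPM against a median of 3.81 CPM, with Cd68 at 14.9 CPM. This sum was thus nearly all Cd68. Lyz2 and Csf1r were at 0 in 20 libraries, the IL-2 library included, and Itgam was highest elsewhere. In that library Ncr1, the defining marker of natural killer cells, was at 0 both in its cells with a Prf1 UMI and in those without. Over all kept cells, with depth not matched between cells with and without Prf1, Fcer1g had a UMI in 23.6% of the 3154 cells with Prf1 and in 7.18% of the 1783 without, Klrb1c in 11.8% and 3.25%, and Cd3d in 98.6% and 96.9%. Tyrobp, also of the natural killer cell list, went the other way, at 0.222% and 0.337%, and so did Cd68, at 7.01% and 8.08%. Of the CD8 genes, Cd8b1 was seen in 57.2% and 49.9% of these cells and Cd8a in 42.0% and 38.5%. Cd8b1 (174 CPM), Cd8a (134 CPM) and Trac (180.1 CPM) were at their lowest of the 21 libraries here, where their medians were 662, 275 and 314 CPM. The part of these markers in the granule gene levels was not tested.

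For activation, cells given beads alone were compared on day 3 with naive cells. A gene was called where it was at least 2-fold apart on the log2(CPM + 1) scale, which understates the change of low genes, and reached 20 CPM in either library. The 2 members called went opposite ways: Gzmb was higher by 6.42 on the log2 scale and Prf1 lower, at −2.59. Of all genes tested, 19.4% were called. With a pseudocount of 10 CPM the Prf1 difference was −1.66. Srgn (0.05), Ctsw (0.02), Nkg7 (−0.09) and Lamp1 (−0.11) lay within 0.11 of no difference.

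Without cytokine, Gzmb was lower on day 5 than on day 3, at −3.74, the 1 member called where 13.1% of all genes were. Srgn (0.61), Ctsw (0.51), Lamp1 (0.37) and Nkg7 (0.37) were on the other side of 0 and short of 2-fold. Prf1 (0.56) did not reach 20 CPM.

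Each cytokine library was set against the library without cytokine of its day. The 6 comparisons of a day share that 1 library. On day 3, Gzmb was at least 2-fold higher in 2 of 6, at 1.54 with 50 IU/mL of IL-2 and 1.26 with 50 IU/mL of IL-2v, and the other 4 lay between 0.25 and 0.48. Prf1 was 2-fold higher in the same 2 libraries, at 1.29 and 1.26, but under 20 CPM, and so was not called. Ctsw was lower in 1, at −1.12 with 50 IU/mL of IL-2. Members called numbered 2 with 50 IU/mL of IL-2, where 9.19% of all genes were called, 1 with 50 IU/mL of IL-2v (9.57%), and 0 with 5 IU/mL of IL-2 (0.248%), of IL-2v (0.282%) and of IL-15 (0.427%) and with 50 IU/mL of IL-15 (1.08%).

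On day 5, Gzmb was at least 2-fold higher in 6 of 6, from 1.42 with 5 IU/mL of IL-15 to 5.33 with 50 IU/mL of IL-2v. It was the 1 member called with 5 IU/mL of IL-2 (2.50% of all genes called), of IL-2v (12.4%) and of IL-15 (1.74%) and with 50 IU/mL of IL-15 (7.72%). Prf1 was called beside it with 50 IU/mL of IL-2, at 1.30 (24.0%), and of IL-2v, at 1.77 (26.7%); with a pseudocount of 10 CPM the first of these was 0.82, short of 2-fold. Ctsw and Lamp1 were below the library without cytokine in all 6, by less than 2-fold, at −0.85 to −0.34 and −0.51 to −0.22. With scaling by the trimmed mean of M values (TMM), Ctsw passed 2-fold with 50 IU/mL of IL-2.

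Dose was compared within a cytokine on days 3, 5 and 10. In these and the following matched pairs, a gene was called where all pairs had the same sign and the median was at least 2-fold. For Gzmb, 50 IU/mL stood above 5 IU/mL in 3 of 3 pairs of each cytokine. For IL-2 the log2 difference was 1.15, 2.63 and 3.06 on days 3, 5 and 10. For IL-2v it was 0.83, 1.88 and 2.62, and for IL-15 it was 0.23, 1.84 and 4.86. Within each cytokine the gap was smallest on day 3 and largest on day 10.

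Prf1 was also higher at 50 IU/mL in 3 of 3 pairs of each cytokine, by 0.89, 1.81 and 4.73 for IL-2 on days 3, 5 and 10. The IL-2v pairs stood at 0.68, 1.70 and 2.72, and the IL-15 pairs at 0.25, 0.33 and 1.06. With IL-15 its median was short of 2-fold and it did not reach 20 CPM on average. Ctsw went the other way with IL-2, at a median of −1.13 (−1.18 to −0.46), but its median was short of 2-fold with TMM scaling (−0.88) and without day 3 (−0.82).

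The dose of IL-2 thus had 3 members called, with 6.99% of all genes called, that of IL-2v 2 members (3.01%) and that of IL-15 1 member (1.05%). Leaving out day 10 left 1 member called with IL-2, Gzmb, at 1.89. Prf1 then stood at 1.35 with under 20 CPM and Ctsw at −0.79. Without day 3 the Prf1 median with IL-2 was 3.27, and the Gzmb median with IL-15 was 3.35 without day 3 and 1.04 without day 10. Srgn, Nkg7 and Lamp1 had medians from −0.32 to 0.17 over the 3 cytokines, and under TMM scaling the sign turned for Nkg7 with IL-2 (to −0.19) and with IL-2v (to −0.02) and for Lamp1 with IL-2v (to −0.07).

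Libraries that differed by cytokine alone formed 6 pairs per comparison. IL-2v against IL-2 had 0 members called, where 1.32% of all genes were. Gzmb was higher with IL-2v in 3 of 6 pairs, by up to 0.95 on day 5 with 5 IU/mL, and lower on day 10 at both doses, at −0.83 and −1.28, so that its median of −0.11 was 0.12 without day 10. Prf1 had a median of 0.08, which turned to −0.38 without day 3 and −0.63 without day 5 and was 0.33 without day 10. It ran down to −3.24 on day 10 with 50 IU/mL, where it was 76.5 CPM with IL-2v and 732 CPM with IL-2. Srgn was lower with IL-2v in all 6 pairs, at a median of −0.59 (−0.99 to −0.10).

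**Figure D2:**
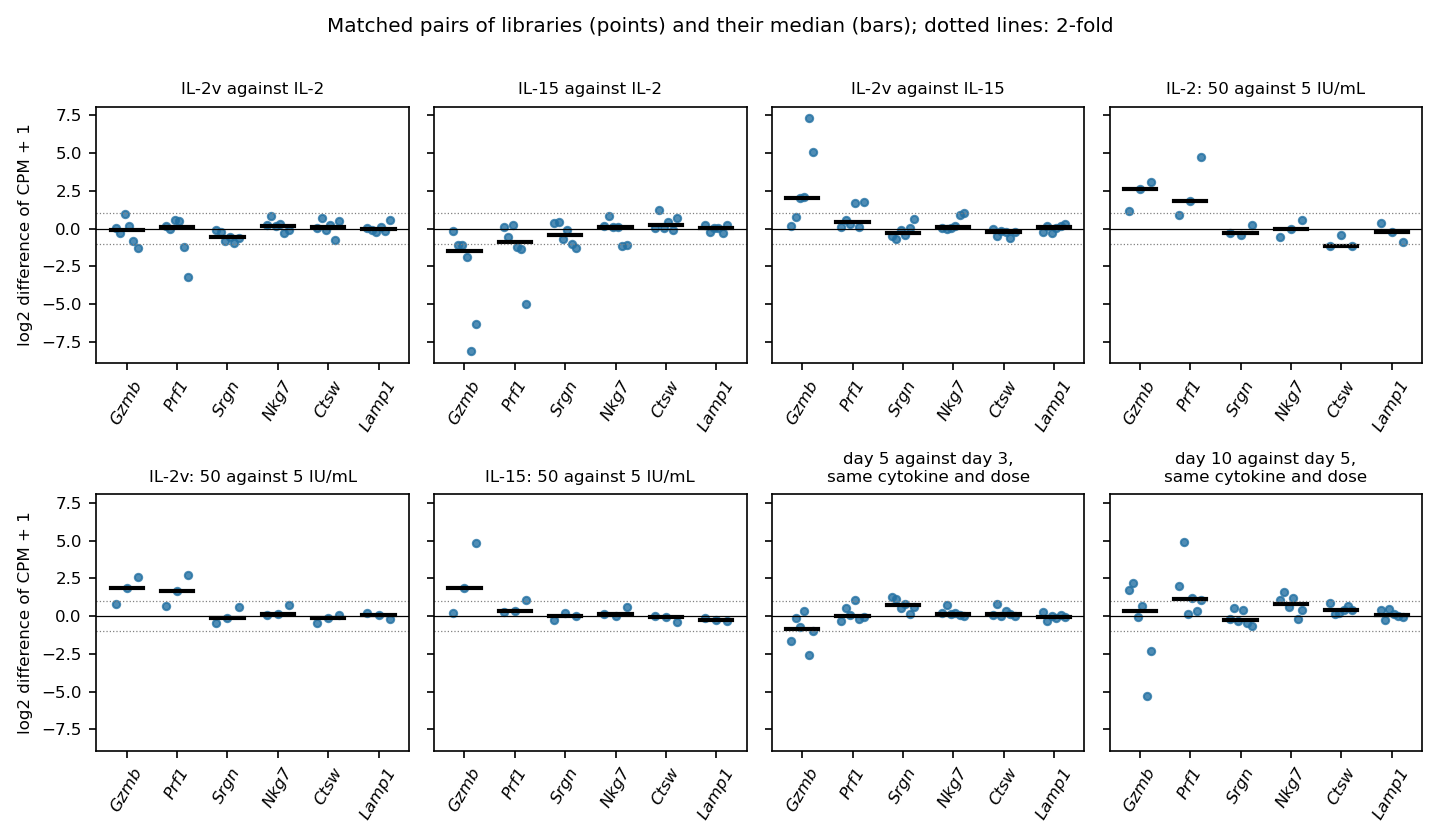
Log2 differences of CPM + 1 between matched pairs of libraries (points) with their median (bars) for the 6 genes in 8 sets of pairs; dotted lines mark 2-fold. Gzmb has all points above 0 in each dose panel, while Lamp1 stays within 2-fold throughout.

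IL-15 against IL-2 had 1 member called, with 2.19% of all genes called. Gzmb was lower with IL-15 in 6 of 6 pairs, at a median of −1.47, from −0.13 on day 3 with 5 IU/mL to −8.14 on day 10 with 5 IU/mL. That median was −4.10 without day 3, −3.70 without day 5 and −1.07 without day 10. Prf1 was lower in 4 of 6, with −5.03 on day 10 at 50 IU/mL. Ctsw was higher with IL-15 in 5 of 6 pairs, at a median of 0.25, short of 2-fold.

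IL-2v against IL-15 also had 1 member called, with 3.06% of all genes called. Gzmb was higher with IL-2v in 6 of 6 pairs, at a median of 2.05 (0.18 to 7.31). The median was 3.56 without day 3, 2.92 without day 5 and 1.40 without day 10. Prf1 was higher in 6 of 6 pairs too, at a median of 0.43, and Ctsw lower in 6 of 6, at −0.21, both short of 2-fold. These 3 cytokine comparisons use the same libraries in turn.

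Days were compared at equal cytokine and dose. From day 3 to day 5, 0 members were called, with 3.04% of all genes called. Gzmb was lower in 5 of 6 pairs, at a median of −0.84, and was higher only with 50 IU/mL of IL-2v, by 0.33. Srgn was higher in 6 of 6 pairs, at a median of 0.72 (0.16 to 1.24). From day 5 to day 10, Prf1 was the 1 member called, with 1.69% of all genes called. It was higher in 6 of 6 pairs, at a median of 1.13 (0.17 to 4.90), and this median was 0.84 with a pseudocount of 10 CPM.

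Gzmb split by cytokine between days 5 and 10. It was higher on day 10 with both doses of IL-2, by 1.74 and 2.17, and with 50 IU/mL of IL-2v, by 0.70, and it stood at −0.04 with 5 IU/mL of IL-2v. With IL-15 it was lower, at −5.32 with 5 IU/mL and −2.30 with 50 IU/mL. Nkg7 was higher on day 10 in 5 of 6 pairs, at a median of 0.83, the exception being 5 IU/mL of IL-15 (−0.19), and Ctsw in 6 of 6, at 0.41.

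Shares of cells were taken after each cell was thinned to 2000 UMIs, with shallower cells left out. Gzmb had a UMI in 0.671% of naive cells (0.453 to 0.957) and in 53.5% of cells on day 3 without cytokine, 4.66% on day 5 without cytokine, 99.0% on day 10 with 50 IU/mL of IL-2 and 0.408% with 5 IU/mL of IL-15. Unthinned, the naive share was 1.09%. On days 3 and 5, the 4 libraries with 50 IU/mL of IL-2 or IL-2v lay between 83.7% and 90.04%.

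The number of Gzmb UMIs per cell also differed. The median cell held 12 Gzmb UMIs on day 10 with 50 IU/mL of IL-2 and 25.3% of cells held 20 or more. With 50 IU/mL of IL-2v the median was 4 and 2.79% held 20 or more. With 5 IU/mL of IL-2 on the same day the median was 1, 45.8% of cells held 0, and the highest cell held 63.

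**Figure D3:**
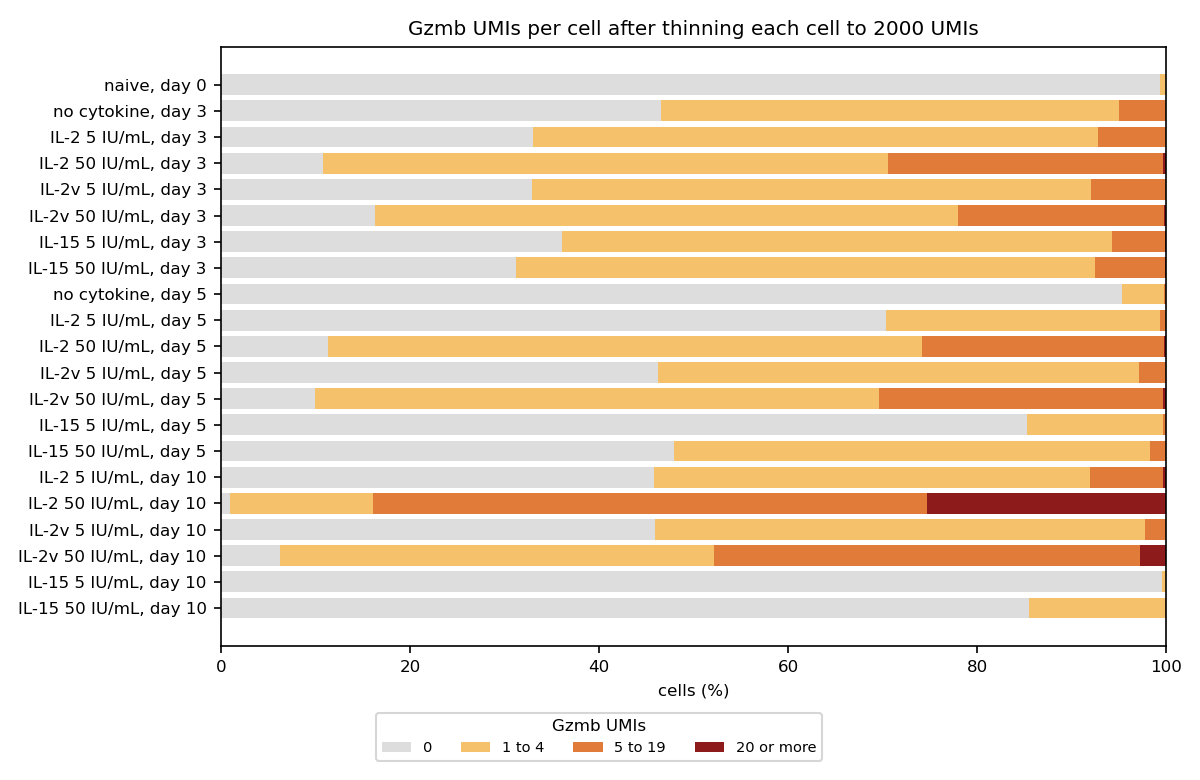
Share of cells (%) in each of the 21 libraries by number of Gzmb UMIs, after thinning to 2000 UMIs per cell. The dark class of 20 or more UMIs holds 25.3% of cells with 50 IU/mL of IL-2 on day 10 and 2.79% with 50 IU/mL of IL-2v.

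The spread of a gene's UMIs over cells was described by the Fano factor, the variance over the mean at 2000 UMIs per cell. The Fano factor is 1 for counting error alone. Beyond that it also depends on the mean, so it does not rank libraries or genes of unequal level by unevenness. For Gzmb it ran from 1.32 (IL-15, 5 IU/mL, day 10) to 7.92 (IL-2, 50 IU/mL, day 10), with 5.01 for IL-2v at 50 IU/mL and 4.25 for IL-2 at 5 IU/mL on that day. Prf1 reached 3.08 in the library where it was highest and stayed at or below 1.74 in the others. Nkg7 lay between 1.16 and 1.59, and Lamp1 between 0.98 and 1.09.

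Prf1 was seen in 7.20% of naive cells and in 1.32% on day 3 without cytokine. It reached 49.4% with 50 IU/mL of IL-2 on day 10, 9.80% with IL-2v and 4.32% with IL-15 at that dose and day. In the other 16 libraries it lay between 1.17% and 5.63%. Nkg7 ran from 43.1% (IL-2, 50 IU/mL, day 3) to 92.0% (IL-2v, 50 IU/mL, day 10), Srgn from 30.4% to 71.2%, Ctsw from 16.1% to 50.7% and Lamp1 from 9.84% to 18.5%.

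**Figure D4:**
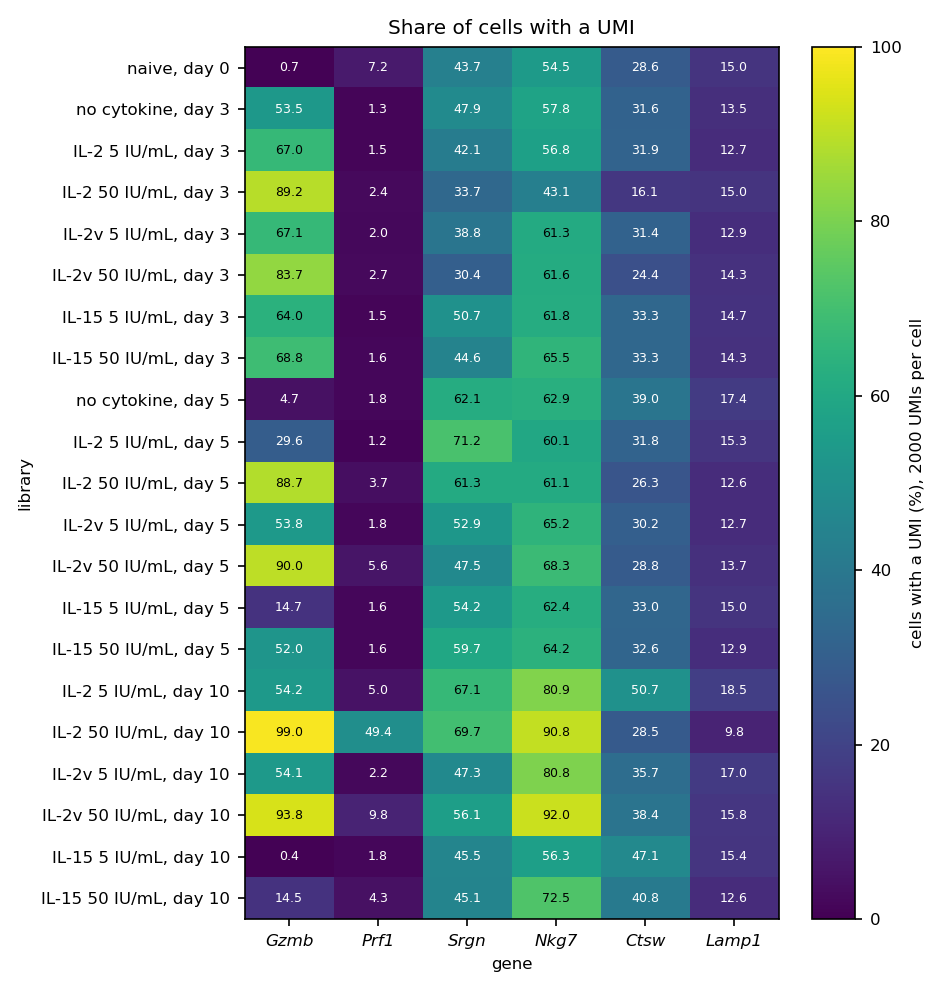
Share of cells (%) with a UMI of each granule gene (columns) in the 21 libraries (rows), at 2000 UMIs per cell. Gzmb covers nearly the whole range, from 0.408% to 99.0%, and Prf1 passes 10% only with 50 IU/mL of IL-2 on day 10, at 49.4%.

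The balance of Gzmb to Prf1, with other granzymes left out, changed as well. Gzmb UMIs per Prf1 UMI numbered 0.163 in naive cells, 111 on day 3 without cytokine, 120 on day 3 with 50 IU/mL of IL-2 and 10.4 on day 10 with the same dose. With 5 IU/mL of IL-15 on day 10 the ratio was 0.229, near that of the naive library as a whole. These are ratios of counts of 2 genes and are not corrected for length. Both genes were lower in that IL-15 library than in the naive one, at 2.23 against 6.50 CPM for Gzmb and 9.74 against 40.0 CPM for Prf1.

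Gzmb also took a changing share of all granzyme UMIs. It made up 11.9% in naive cells, 99.0% on day 3 with 50 IU/mL of IL-2, and 29.5% on day 10 with that dose. In that last library Gzmg stood at 5667 CPM, Gzma at 5352 CPM, Gzmd at 3602 CPM, Gzme at 1752 CPM and Gzmc at 1353 CPM. Gzmc, Gzmd, Gzme, Gzmf and Gzmg are close copies of each other, so their separate values are uncertain.

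Naive cells were not uniform in these genes. Of 4777 naive cells, 569 (11.9%) had a UMI of Ccl5, a chemokine of memory and effector T cells, and they held 92.5% of the library's Gzmb UMIs. Their Gzmb level was 48.1 CPM (39.5 to 57.9), against 0.557 CPM (0.255 to 1.06) in the other 4208. Nkg7 stood at 946 and 436 CPM, Ctsw at 345 and 167 CPM, and Prf1 at 81.8 and 34.0 CPM. Srgn (431 and 304 CPM) was closer, and the Lamp1 intervals overlapped (87.9 and 79.2 CPM). The cells without Ccl5 still held 74.4% of the Prf1 UMIs. For Gzmb, the whole library of day 10 with 5 IU/mL of IL-15, at 2.23 CPM (1.67 to 2.93), lay between the 2 parts of the naive library.

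The same split was made in the other libraries. Gzmb was higher in cells with a Ccl5 UMI in 21 of 21, with a median ratio of 1.40 and a range from 1.03 (IL-2, 50 IU/mL, day 10) to 86.3 (naive). Prf1 was higher in 19 of 21, with a median ratio of 2.19. The exceptions were the libraries of day 10 with 50 IU/mL of IL-2, where Prf1 stood at 488 CPM with Ccl5 and 751 CPM without, and of IL-2v, with 56.1 and 80.5 CPM. These 2 are also the libraries with the highest Prf1 levels. Nkg7 and Ctsw were higher in 19 of 21 as well, by median ratios of 1.12, and Lamp1 in 11.

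Cells with a Mki67 or Top2a UMI, genes of dividing cells, made up 3.01% of naive cells and 5.21% to 86.9% of activated cells. Their share was above that in naive cells in every activated library. In naive cells Gzmb was 78.3 CPM in cells with such a UMI and 3.55 CPM in those without. Over the 21 libraries the log2 difference of dividing from other cells had a median of −0.07 for Gzmb and was above 0 in 7. Prf1 (median −0.37, above 0 in 6) and Srgn (−0.32, above 0 in 2) were mostly lower in dividing cells, while Nkg7 (−0.07), Ctsw (−0.02) and Lamp1 (−0.03) were near 0.

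Within libraries, co-detection at equal depth was described by the odds ratio of 2 genes having a UMI in the same cell. Cells with a Gzmb UMI had Prf1 more often than cells without in 21 of 21 libraries, with a median log2 odds ratio of 0.90 (0.05 to 2.31). The intervals of the 2 shares were apart in 7 libraries. In cells without a UMI of the cell cycle genes Mki67 or Top2a, the ratio was above 0 in 19 of 21 libraries with a median of 0.37. On day 5 with 5 IU/mL of IL-2, 2.55% of Gzmb-positive and 0.583% of Gzmb-negative cells had Prf1. With the same dose on day 10 the shares were 5.13% and 4.95%. On day 10 with 50 IU/mL of IL-2, 49.7% of Gzmb-positive cells had Prf1, against 17.8% of the 45 negative cells. In naive cells it was 26.7% of 30 against 7.07% of 4441.

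Nkg7 went with Gzmb in 21 of 21 libraries (median 0.44, intervals apart in 15) and with Ctsw in 21 of 21 (0.34, apart in 13). It went with Prf1 in 20 of 21 (0.55, apart in 8), and Ctsw went with Gzmb in 20 of 21 (0.16, apart in 7). Srgn and Gzmb had a median of 0.07, from −0.31 to 1.56 in naive cells, with intervals apart in 3 libraries, 2 of them higher. Lamp1 and Gzmb had a median of −0.02, with intervals apart in 1 library, where Lamp1 was less often seen with Gzmb. Pairs of a member with Cd3e, Cd8a or Ptprc (CD45, of all leukocytes), taken for comparison, had medians from −0.19 to 0.20. Among these comparison genes, Cd3e went with Cd8a (0.11) and with Ptprc (0.17) in 20 of 21 libraries each, as often as Ctsw with Gzmb. Cd8a went with Ptprc in 13 (0.07).

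**Figure D5:**
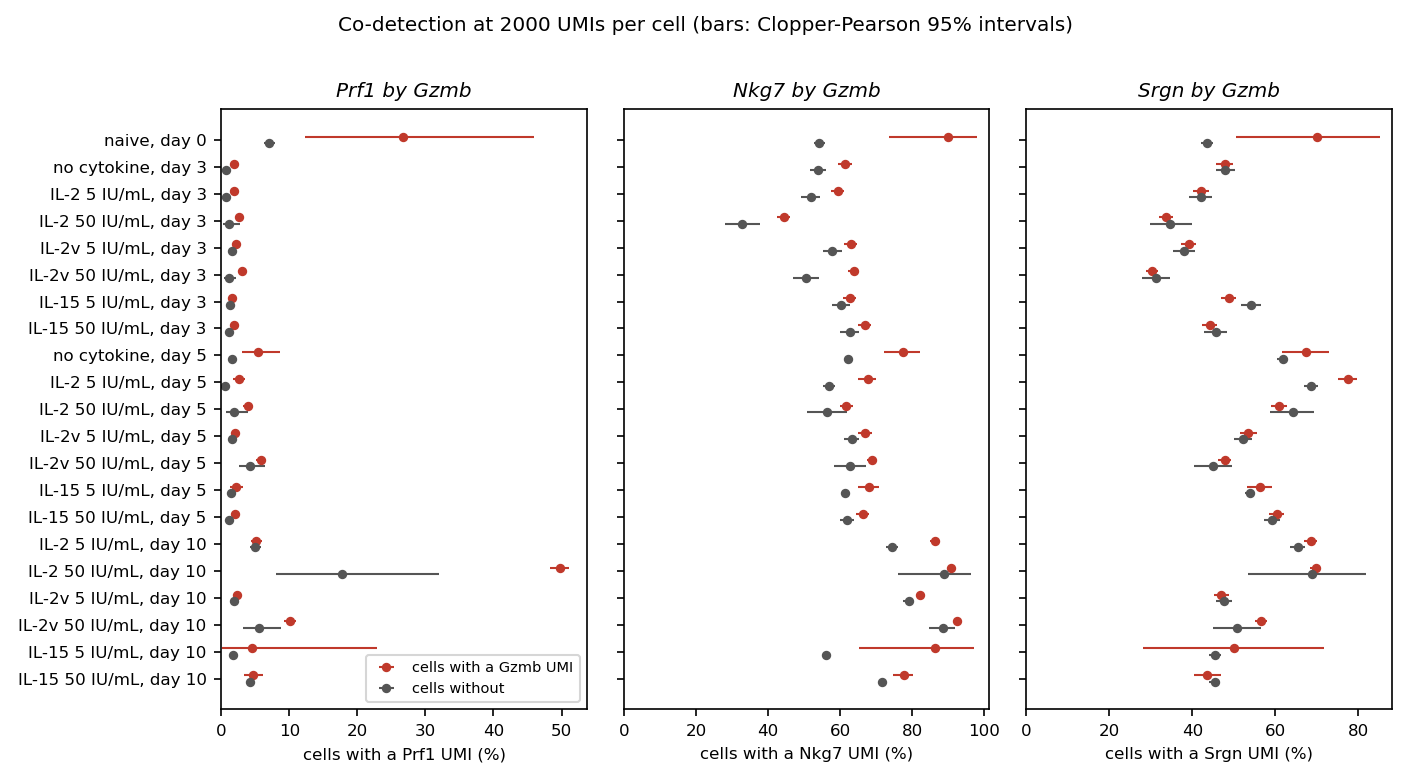
Share of cells (%) with a Prf1, Nkg7 or Srgn UMI among cells with a Gzmb UMI (red) and without (grey), per library at 2000 UMIs per cell, with Clopper-Pearson 95% intervals. Red lies to the right of grey for Prf1 and Nkg7 in 21 of 21 libraries, and for Srgn in 13.

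Across the 21 libraries, which differ in depth and include pairs that share a cytokine or a day, the genes most like each member were named by Pearson's r of log2(CPM + 1) among 5489 genes. For Gzmb they were Acot7 (0.97), Unc119, Lgals1, Csnk2b and Anxa2 (0.95). For Prf1 they were Ehd1 (0.92), Vti1b, Gzmg, Selenos and Gzmd (0.89). Without the library of day 10 with 50 IU/mL of IL-2, a choice made after seeing the data, the 5 values lay between 0.73 and 0.80. Gzmg was at 0 in 13 of the 21 libraries and Gzmd in 14, and both were highest in that library. The 5489 genes were those with a mean of at least 20 CPM, which Gzmg reached only through that library. Nkg7 was most like Id2 (0.89), Myl6 and Flt3l. Srgn was most like Eva1b (0.88), Rnasek and Gabarap, Ctsw most like Sntb2 (0.89), Skap1 and March2, and Lamp1 most like Rer1 (0.79), Suclg1 and Psma3.

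Among themselves the members were less alike. Prf1 and Nkg7 had r = 0.72 (0.56 without that library), Gzmb and Prf1 0.36 (0.14 without it), and Gzmb and Ctsw −0.50 (−0.48 without it). The genes named as most like a member were chosen from genes other than the 6 members. Placed among those genes, Nkg7 ranked 60 for Prf1 and Prf1 ranked 63 for Nkg7, and all other pairs of members ranked lower.

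The wider granule pathway was followed in 73 genes of 7 lists, of which 72 were in the tables: other granzymes, granule loading and lysosome, transport and exocytosis, synthesis of the glycosaminoglycan chains of serglycin, granzyme inhibitors, transcription factors and other effector molecules. In activation, 12 of 44 tested were higher and 2 lower, beside 19.4% of all genes. Irf4 (4.29) and Prdm1 (2.62), transcription factors of effector T cells, and Serpinb6b (2.81), an inhibitor of granzymes, were higher, and Eomes (−1.63), a T-box factor, was lower. Without cytokine, 7 of 43 were lower on day 5 than on day 3 and 1 higher, beside 13.1% of all genes called: Serpinb6b (−2.56), Prdm1 (−2.26) and Sytl2 (−1.63), a granule tether, against Ctss (1.82), a lysosomal protease.

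With the dose of IL-2, 8 of 51 list genes were higher and 1 lower, beside 6.99% of all genes called. They were led by Gzmd (2.31), Serpinb9 (1.89), the inhibitor of granzyme B, Nfil3 (1.85), a transcription factor, and Gzme (1.79). Gzmd and Gzme reached 20 CPM on average only through the library of day 10 with 50 IU/mL, so their medians rest on libraries under 20 CPM. With the dose of IL-2v, 9 of 50 were higher (3.01% of all genes called), among them Gzmc (3.56), the cytokine gene Lta (2.11), Nfil3 (2.09) and Prdm1 (1.65). The dose of IL-15 had 1 of 38 higher (1.05% of all genes called), Eomes (1.02).

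Between cytokines, 6 of 51 list genes were lower with IL-15 than with IL-2 (2.19% of all genes called), among them Gzmc (−2.59), Nfil3 (−2.50), Lta (−1.63) and Fasl (−1.18), the ligand of the death receptor Fas, which reached 20 CPM on average only through the library of day 10 with 5 IU/mL of IL-2. With IL-2v, 5 of 47 were higher than with IL-15 (3.06% of all genes called), including Gzmc (1.60), Nfil3 (1.57), Tnf (1.40) and Prdm1 (1.15), and 0 of 51 were called against IL-2 (1.32%). From day 3 to day 5, 1 of 45 was higher, Gzmc (1.36), beside 3.04% of all genes, and from day 5 to day 10, 0 of 49 were called, beside 1.69%. Against no cytokine on day 3, 6 of 48 list genes were higher with 50 IU/mL of IL-2v, beside 9.57% of all genes called, and 4 of 46 were higher and 1 lower with IL-2 at that dose, beside 9.19%. In the other 4 comparisons of that day 0 were called. On day 5 with 50 IU/mL, 18 of 47 were higher and 1 lower with IL-2, 17 of 48 higher and 1 lower with IL-2v, and 7 of 42 higher and 1 lower with IL-15, beside 24.0%, 26.7% and 7.72% of all genes called in either direction. With 5 IU/mL, 5 of 41 were higher with IL-2, 9 of 41 higher and 1 lower with IL-2v, and 0 of 35 called with IL-15, beside 2.50%, 12.4% and 1.74%. Of the 16 genes of granule loading and lysosome, 13 or 14 were tested in each comparison. At most 2 were higher and 1 lower, which was on day 5 against no cytokine, with 50 IU/mL of IL-2 and with both doses of IL-2v, beside 24.0%, 26.7% (50 IU/mL) and 12.4% (5 IU/mL) of all genes called.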

How the data were processed

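Single-cell RNA of 21 libraries was analysed. The authors deposited raw UMI counts per gene symbol and cell, 1 table per library. Per the submitters' processing notes, Cell Ranger, Seurat 4.0.1, Seurat 3.0.2 and the build mm10 were used; the annotation and any doublet removal are not given in the sources used here, and no doublet caller was run. Cells below 1000 UMIs or 500 genes, or above 10% mitochondrial UMIs, were left out (2 in all), counts were summed per library and scaled to CPM, and differences were taken on log2(CPM + 1). Genes with at least 20 CPM in either arm were tested against a 2-fold limit. With 1 library per condition no p-value was computed. Shares of cells with a member's UMI and odds ratios used cells thinned to 2000 UMIs; shares of the marker genes, the Ccl5 split and the Mki67 or Top2a split used all kept cells at their own depth. edgeR 4.0.16 gave the TMM factors of 1 alternative. The code was tested on simulated data. The members and the gene lists were chosen with earlier results of these data known. Named were the 6 members, at most 4 called list genes per comparison with the largest median, and the 5 genes most like Gzmb and Prf1 and 3 for each other member. Promoter sequences and gene positions came from RefSeq (GRCm38.p6), where 5 of the 6 members had a window. Exon overlaps and shared stretches came from GENCODE. Day 7 of the growth text was not analysed here.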

Additional observations from a re-analysis of the deposited data

How the results depend on the processing

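The number of members called was recomputed with every barcode, with a stricter mitochondrial limit (5%), without possible doublets (over 2 times the median depth of their library), without cells that had Mki67 or Top2a, with TMM scaling, with totals that left out ribosomal protein and mitochondrial genes or granzymes, with CPM averaged over cells, with a pseudocount of 10 CPM, with no expression filter and without each day. Every barcode meant 106458 in place of 106456, so that setting could hardly move a count. Of 133 recomputed counts, with the 12 comparisons against no cytokine counted together (11 calls among 72 member comparisons, 10 to 13 under the alternatives) and those of Gzmb and Prf1 co-detection included, 131 stayed within 1.5 times the first count. The exceptions were the dose of IL-2, with 1 member called without day 10 in place of 3, and day 10 against day 5, with 0 members called with a pseudocount of 10 CPM in place of 1. Smaller changes passed that limit: for the dose of IL-2, Ctsw was not called with TMM scaling (−0.88) or without day 3 (−0.82). For the dose of IL-2 without day 10, Prf1 fell under 20 CPM on average and the Ctsw median fell short of 2-fold. The larger pseudocount shrinks the differences of low genes such as Prf1. Of 1428 recomputed differences of single members, 385 moved beyond counting error and 54 had another sign, all of them of differences no larger than 0.40 at first. The 1428 include the setting with no expression filter, which cannot change a difference, and that with every barcode, which hardly could. The share of all genes called moved more: for IL-2v against IL-2 it was 0.274% with a pseudocount of 10 CPM and 3.89% without day 3, in place of 1.32%, and without day 3 it was 4.75% for IL-15 against IL-2, 7.72% for IL-2v against IL-15 and 3.37% for the dose of IL-15. TMM scaling shifted the median of all genes by −0.13 to 0.15 over the 10 main comparisons. Depth limits the lowest levels: Gzmb rested on 52 UMIs with 5 IU/mL of IL-15 on day 10 and on 120 in naive cells, and Prf1 on 121 in the library where it had fewest.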
